A study of Pseudotaxus chienii and Amentotaxus argotaenia and Torreya grandis with 9 samples.

Results

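Transcript levels in fresh twigs of Pseudotaxus chienii, the white-berry yew, were compared with those in fresh twigs of Torreya grandis, a nutmeg yew. The comparison used 6 of the 9 libraries of the series, 3 per species, chosen by the species in their labels. P. chienii is labelled as taxol-producing and T. grandis as non-taxol producing. All 6 libraries came from wood with needles, from plants aged 3 years that per the labels grew under the same temperature, day length and humidity, and no treatment is given. Levels were compared over Trinity components, each the sum of the features whose IDs differ only in the last number. A component was compared where it reached at least 5 TPM in all 6 libraries, which held for 10225 of 42956 components. TPM is an abundance unit that is scaled for transcript length and set to a fixed sum per library. Whether the replicates of a species are separate trees is not labelled, and if they are not, the p-values measure technical spread only. With 1 species on each side, the taxol label and the species cannot be told apart.

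Both trees are conifers of the yew family. Taxol is a diterpenoid, built from a precursor that plastids also use for pigments and hormones, and yews store it mainly in bark and needles. Trinity assembles transcripts from reads without a genome, and its components group assembled sequences that overlap, such as the alleles, splice forms or close copies of a gene. A feature is 1 gene-level member of such a group. All libraries of the series are listed over the same feature IDs, whatever their species. No gene name or sequence accompanies the feature IDs in the sources used here. Components are therefore named by ID with no role given to them, and the tissue could not be checked against marker genes.

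The libraries of a species were close to each other over the 10225 components. Pearson's r on log2(TPM + 1) was between 0.946 and 0.979 within P. chienii and between 0.953 and 0.974 within T. grandis. P. chienii replicate 1 and T. grandis replicate 3 each correlated less with the other libraries of their species than those did with each other. Between the species r ranged from 0.586 to 0.640 over 9 pairs of libraries. These correlations run across components, which are not independent replicates. Of the total TPM, 77.2% ± 1.41 (SD, n = 3) in P. chienii and 77.2% ± 1.39 in T. grandis lay in the compared components. The rest lay in 32731 components that missed the limit in at least 1 library. Of these, 5642 reached 5 TPM in all P. chienii libraries but not in all of T. grandis, and 4066 the reverse. At the limit itself, TRINITY_DN36136_c0, with a lowest value of 5 TPM, was compared, and TRINITY_DN43974_c0, with a lowest value of 4.99 TPM, was not.

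The measured levels differed between the species at a large part of the compared components, in both directions and about evenly. All libraries are listed over the same feature IDs. Without sequences, a difference in level and a difference in sequence cannot be told apart at a component. By limma with Benjamini-Hochberg adjustment, 3659 components changed, which is 35.8% of those tested. Changed means here that the adjusted p was under 0.05 and the difference 2-fold or more. Of these, 1946 were higher in P. chienii, 19.0% of those tested, and 1713 were lower, 16.8%. The median log2 fold change of all 10225 components was 0.05 and its 25th and 75th percentiles were -0.68 and 0.77. The median size of a difference, in either direction, was 1.65-fold. In these bulk samples, fewer cells of a type and less RNA per cell cannot be told apart. After median centring 1804 components were higher and 1866 lower, and after quantile normalization 1843 and 1830, so which direction was the more frequent depended on the scaling.

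Large differences were a small part of the compared components, which had to reach 5 TPM in all 6 libraries. That limit leaves out components that differ most. Of the 32731 left out, 2830 reached 5 TPM in all P. chienii libraries and stayed under 1 TPM in all of T. grandis. The reverse held for 1859. At least 4-fold differences were found at 540 components higher and 497 lower in P. chienii, and at least 8-fold ones at 166 higher and 146 lower, together 3.05% of those tested. At 32-fold or more stood 27 higher and 21 lower. With no minimum fold 6459 components passed, 63.2% of those tested, and 2800 of these differed by less than 2-fold. For 3983 components, 39.0% of those tested, the unadjusted 95% interval of the fold change lay wholly within 2-fold in either direction. At 7036 components all libraries of one species lay above all those of the other, which is 68.8% of those tested. The median standard error of a log2 fold change was 0.18. In a wider set of 32897 components with 1 TPM or more in 3 or more of the 6 libraries, 56.9% changed, 31.5% higher and 25.4% lower in P. chienii, but a component can enter that set through 1 species alone.

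**Figure D1:**
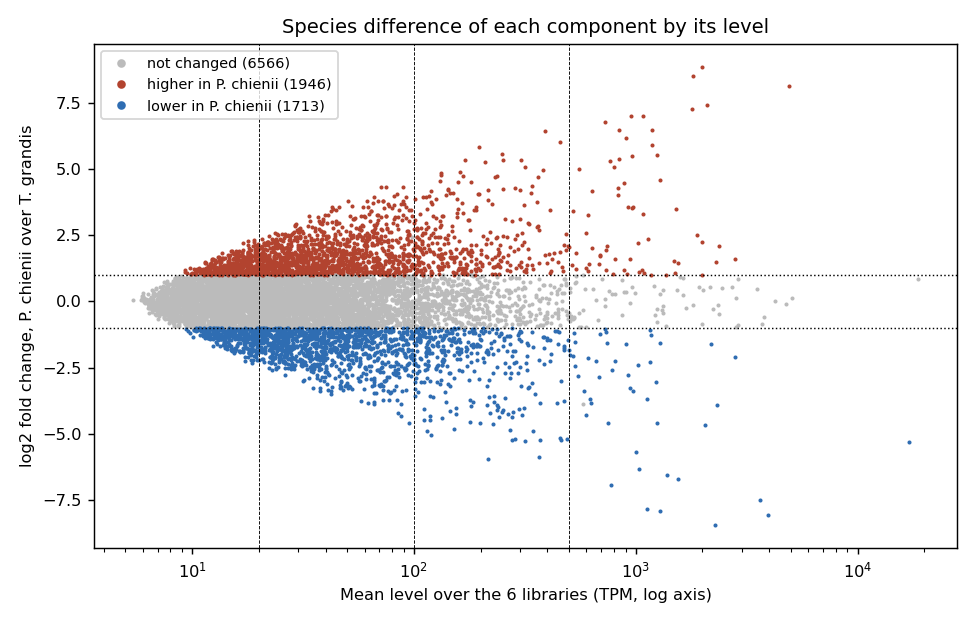
Each point is 1 of the 10225 components, with its mean level over the 6 libraries on the x axis (TPM, log axis) and the log2 fold change of P. chienii over T. grandis on the y axis. Dotted lines mark 2-fold and dashed lines the class limits of 20, 100 and 500 TPM. The 1946 higher and 1713 lower components fan out on both sides as the mean level grows.

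The largest rises in P. chienii were of components that ranked among its most abundant and stood at low levels in T. grandis. The floor of 5 TPM in each library fixes this in part, since the largest differences need a high level in 1 species. TRINITY_DN42701_c0 stood at 5325, 3409 and 3161 TPM in P. chienii replicates 1 to 3 and at 6.80, 8.44 and 6.70 TPM in those of T. grandis. It was the component of rank 10 in P. chienii and of rank 14557 in T. grandis. Its log2 fold change was 8.86 ± 0.21 (SE), with 6.17e-07 as limma's adjusted p. TRINITY_DN41260_c0, a component of 1 feature, was at 3971, 3729 and 3123 TPM in P. chienii and at 9.54, 8.81 and 7.88 TPM in T. grandis. At a log2 difference of 8.53 ± 0.14 (SE), with 1.61e-07 as limma's adjusted p it had the narrower spread of the pair. Both were as low in Amentotaxus argotaenia, the other species labelled as not producing taxol, at 5.63 ± 0.756 TPM and 8.45 ± 0.594 TPM (SD, n = 3).

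TRINITY_DN41305_c0 was the component of rank 2 in P. chienii, at 10147, 7361 and 11809 TPM, against 72.6, 50.8 and 9.23 TPM in T. grandis. Replicate 3 of T. grandis lay far below the other two, and the log2 difference of 8.14 ± 0.66 (SE), with 3.68e-05 as limma's adjusted p carried a larger error for it. TRINITY_DN43093_c3 was at 2966, 4624 and 4928 TPM in P. chienii and at 33.7, 25.8 and 12.9 TPM in T. grandis. This one was high in A. argotaenia as well, at 1439 ± 232 TPM (SD, n = 3), so among the 3 species it was low in T. grandis. TRINITY_DN41531_c0 (3568 ± 761 TPM against 22.4 ± 6.80 TPM) and TRINITY_DN38729_c0 (2134 ± 445 TPM against 19.2 ± 13.1 TPM; SD, n = 3) completed the 6 largest rises, with log2 fold changes of 7.27 ± 0.24 and 7.0 ± 0.55 (SE). In T. grandis TRINITY_DN38729_c0 was at 31.3, 21.2 and 5.19 TPM. Without T. grandis replicate 3, its log2 fold change was 6.29 and that of TRINITY_DN41305_c0 was 7.28. No library of T. grandis reached the level of any P. chienii library at these 6 components.

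The largest falls mirrored this under the same floor, and several of the components were among the most abundant in T. grandis. TRINITY_DN40080_c1 was at 5.57, 17.3 and 15.2 TPM in P. chienii and at 3873, 3538 and 6159 TPM in T. grandis, where it ranked 10. Its log2 fold change was -8.46 ± 0.40 (SE), with 4.04e-06 as limma's adjusted p, and A. argotaenia was also low, at 17.7 ± 0.474 TPM (SD, n = 3). TRINITY_DN40905_c1, of rank 3 in T. grandis, was at 7584, 8545 and 7547 TPM there and at 11.3, 59.8 and 33.5 TPM in P. chienii. Its T. grandis libraries lay close together while replicate 1 of P. chienii lay far below its other two, and the log2 fold change was -8.06 ± 0.51 (SE), with 1.24e-05 as limma's adjusted p. Without P. chienii replicate 1 it was -7.43, and without both libraries that stood apart that of TRINITY_DN40080_c1 was -7.75. TRINITY_DN41386_c1, of rank 4 in T. grandis, was at 32.8, 48.3 and 35.5 TPM in P. chienii and at 6784, 6986 and 7883 TPM in T. grandis. Its log2 difference of -7.52 ± 0.17 (SE), with 5.92e-07 as limma's adjusted p had the smallest error of the 6 largest falls. In A. argotaenia it was at 2877, 38470 and 5073 TPM, so only P. chienii was low among the 3 species.

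TRINITY_DN38119_c3 was at 10.6 ± 6.48 TPM in P. chienii against 2559 ± 123 TPM in T. grandis (SD, n = 3). TRINITY_DN47447_c0 was at 8.47 ± 1.54 TPM against 2249.5 ± 900 TPM. In A. argotaenia that component was at 168, 16781 and 686 TPM, so its level there depended on the library. TRINITY_DN42270_c0, with 12 features, was at 8.61, 14.4 and 11.6 TPM in P. chienii and at 1304, 1525 and 1763 TPM in T. grandis, giving a log2 difference of -6.95 ± 0.20 (SE), with 9.36e-07 as limma's adjusted p. In none of the 6 components did a P. chienii library reach a T. grandis library.

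**Figure D2:**
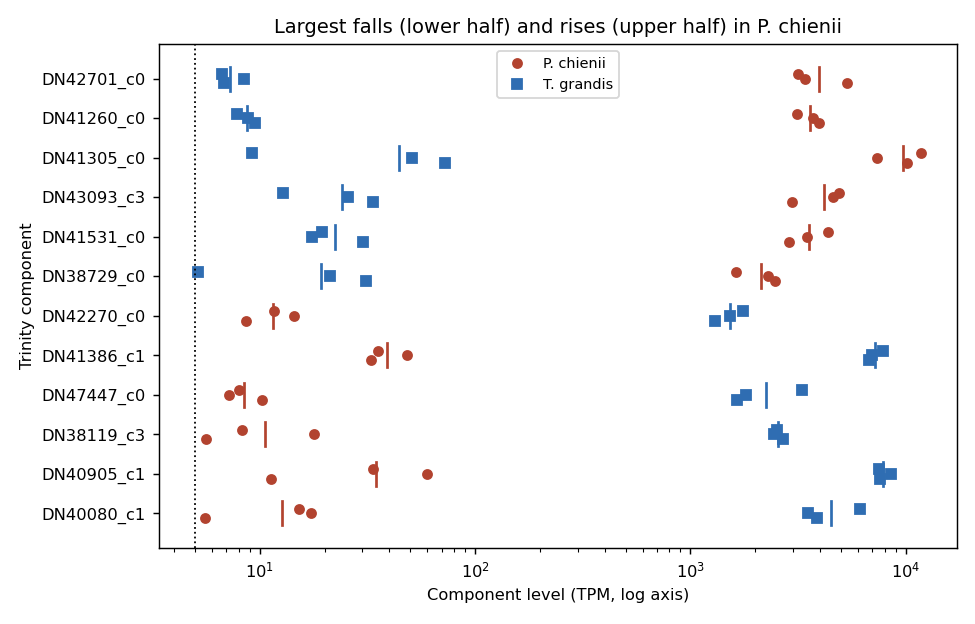
Levels of the 6 components with the largest falls (lower rows) and the 6 with the largest rises (upper rows) in P. chienii, on a log axis in TPM. Circles are the 3 P. chienii libraries, squares the 3 T. grandis libraries, vertical bars the species means and the dotted line the limit of 5 TPM; in every row the species are separated, and the low species reaches no more than 72.6 TPM.

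The libraries with the lowest values in the largest differences were counted. Among the 21 falls of 32-fold or more, P. chienii replicate 1 was the lowest library of its species in 16, against 36.1% of all tested components. Among the 27 rises of that size, T. grandis replicate 3 was the lowest of its species in 11, against 26.5% of all tested components. Both are the libraries that stood apart in their species, and their part in these low values was not tested. Without both, 3773 components changed, 2060 higher and 1713 lower. Without the 41 components in which either species lay under 2% of the highest of the 3 species means, 3622 of 10184 components changed, 1925 higher and 1697 lower. The 6 largest rises and the 6 largest falls above are among those left out, so this setting does not test them.

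Components were then grouped by abundance. Of the 3709 components with a mean under 20 TPM, 732 changed (19.7%), against 2169 of 5128 (42.3%) at 20 to 100 TPM, 644 of 1202 (53.6%) at 100 to 500 TPM and 114 of 186 (61.3%) at 500 TPM and over, beside 35.8% over all classes. At least 8-fold differences made up 0% of the lowest class, 2.36%, 11.5% and 28.5% of the highest. The order depended on the measure that defined the class. With a floor of 5 TPM in each library, a component with a mean under 20 TPM cannot differ much, and a large difference in itself raises the mean. Grouped by the lower of the 2 species means, the share that changed went the other way, from 38.0% under 20 TPM through 33.5% and 30.4% to 30.3% at 500 TPM and over. Grouped by the mean in A. argotaenia, whose libraries are not in the comparison, it was 30.9%, 37.9%, 47.1% and 47.1% in the same order.

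**Figure D3:**
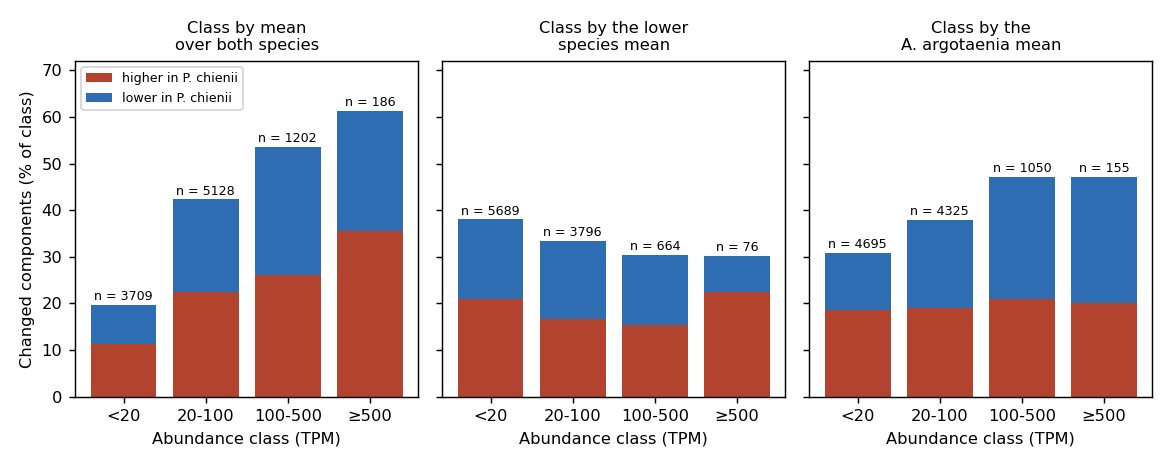
Percentage of components that changed in each abundance class, split into higher (lower part of the bar) and lower (upper part) in P. chienii, with the number of components above each bar. The left panel groups by the mean over both species, the middle by the lower species mean and the right by the A. argotaenia mean; the shares climb from 19.7% to 61.3% on the left and decline from 38.0% to 30.3% in the middle.

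Neither direction prevailed in every class. Among changed components, 56.8% were higher in P. chienii under 20 TPM, 53.0% at 20 to 100 TPM, 48.9% at 100 to 500 TPM and 57.9% at 500 TPM and over. The median log2 fold change was 0.07, 0.04, -0.11 and 0.34 in that order. The classes held similar parts of the TPM in both species. Components of 500 TPM and over held 26.8% ± 1.72 in P. chienii and 26.8% ± 2.05 in T. grandis (SD, n = 3), and those of 100 to 500 TPM held 22.9% ± 0.509 and 23.9% ± 0.267. For the latter every T. grandis library lay above every P. chienii library, with p = 0.1 by a two-sided exact permutation test, the smallest p that 3 libraries against 3 allow.

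The floor of 5 TPM and the class limits bound how far a component can differ within a class. Under 20 TPM, TRINITY_DN52819_c1 rose most, from 5.61, 5.62 and 5.93 TPM in T. grandis to 32.2, 33.7 and 31.0 TPM in P. chienii, giving a log2 difference of 2.31 ± 0.13 (SE), with 8.85e-06 as limma's adjusted p. TRINITY_DN43076_c0 fell most, from 22.5, 34.9 and 37.7 TPM to 5.35, 5.26 and 5.69 TPM, giving a log2 difference of -2.31 ± 0.21 (SE). Both low groups lay just above the limit of 5 TPM. At 20 to 100 TPM, TRINITY_DN36837_c0 rose from 7.44 ± 0.658 TPM to 171 ± 34.4 TPM and TRINITY_DN34427_c0 fell from 183 ± 9.50 TPM to 6.59 ± 1.04 TPM (SD, n = 3), at log2 fold changes of 4.33 ± 0.18 and -4.61 ± 0.15 (SE). At 100 to 500 TPM, TRINITY_DN51853_c1 rose from 5.43, 6.34 and 12.5 TPM to 556, 1067 and 702 TPM, and TRINITY_DN52904_c1 fell from 407, 358 and 514 TPM to 5.62, 6.53 and 5.48 TPM. Their log2 fold changes were 6.44 ± 0.33 and -5.95 ± 0.16 (SE). With a pseudocount of 5, TRINITY_DN34427_c0 was at -4.02 and TRINITY_DN52904_c1 at -5.30.

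At the top of the ranking the species shared a minority of components. Of the 10 most abundant components of each species 3 were shared, of the 100 most abundant 38 and of the 500 most abundant 200. Of the top 100 of P. chienii 92 were tested, and 54 were called higher there. Of the top 100 of T. grandis 83 were tested, and 42 were called lower in P. chienii. Over all tested components the shares were 19.0% and 16.8%, and the choice of top components by species favours these directions. The 10 most abundant components held 6.68%, 6.92% and 7.85% of the TPM in P. chienii and 9.63%, 10.1% and 7.99% in T. grandis, with no overlap (p = 0.1, two-sided exact permutation test, the smallest possible). The 100 most abundant held 23.2%, 24.0% and 25.6% against 26.1%, 27.1% and 23.7%, which overlap (p = 0.3, two-sided exact permutation test).

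The most abundant component over both species was TRINITY_DN36656_c0, of rank 1 in P. chienii and rank 2 in T. grandis. It was at 20862, 24002 and 27287 TPM in P. chienii and at 12392, 17244 and 10788 TPM in T. grandis. The libraries did not overlap, but the log2 difference of 0.86 ± 0.34 (SE) missed the threshold, with adjusted p = 0.0598 by limma. It passed after quantile normalization, at 1.30, and without T. grandis replicate 2, at 1.05. TRINITY_DN47601_c0, of rank 1 in T. grandis, was at 41352, 35301 and 22535 TPM there and at 195, 1272 and 2176 TPM in P. chienii. It fell by 5.30 on the log2 scale (SE 0.81; adjusted p = 0.000846, limma) while replicate 1 of P. chienii lay far below its other two. The log2 fold change was -4.27 without that library, -6.00 without P. chienii replicate 3 and -4.52 without both libraries that stood apart.

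Other abundant components stood at like levels in both species. TRINITY_DN53707_c4, TRINITY_DN44684_c1, TRINITY_DN39695_c1 and TRINITY_DN43538_c0 were named for the smallest differences at 500 TPM and over, so their like levels follow from that choice. TRINITY_DN37565_c3 was at 4459, 5442 and 6024 TPM in P. chienii and at 5438, 4570 and 4449 TPM in T. grandis, which overlap. The 95% interval of its log2 fold change ran from -0.40 to 0.67. In A. argotaenia the level of this component was far lower, 24.1 ± 4.04 TPM (SD, n = 3). TRINITY_DN39684_c2 was of rank 5 in both species, at 4572 ± 408 TPM and 4950 ± 425 TPM, with an interval from -0.60 to 0.37. TRINITY_DN53707_c4 had the smallest difference among components of 500 TPM and over, 4244 ± 1547 TPM against 4226 ± 1813 TPM, but its libraries varied so much that the interval reached from -0.89 to 0.92. The interval was narrower for TRINITY_DN44684_c1, at 669 ± 80.3 TPM and 659 ± 155 TPM, from -0.43 to 0.51, and for TRINITY_DN39695_c1, at 924 ± 176 TPM and 954 ± 141 TPM, from -0.51 to 0.41. TRINITY_DN43538_c0, at 760 ± 274 TPM and 689 ± 165 TPM, had one from -0.62 to 0.82.

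The feature that carried a component was often not the same in the 2 species. The leading feature of a component in a species is the one with the highest mean over its 3 libraries. It differed between the species in 3790 components, which is 50.2% of the 7555 compared components with several features and 37.1% of all. The share grew with the number of features, from 34.8% of components with 2 features through 50.2% with 3 to 4 and 66.0% with 5 to 8 to 80.7% with 9 or more. A component with more features has more candidates for the lead, which by itself can raise this share. With abundance the share varied less, from 34.3% under 20 TPM to 45.7% at 500 TPM and over. In 2671 of the 3790 components, the same feature led in all 3 libraries of its species on both sides.

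Where the leaders differed, they were typically, though not always, a small part of the component in the other species. The P. chienii leader held a median of 82.9% of the component in P. chienii and 0.312% of it in T. grandis, and the T. grandis leader 83.0% in T. grandis and 0.743% in P. chienii. Over all 7555 components with several features, the P. chienii leader held under 1% of the T. grandis level in 2584 and at least 90% of it in 2069, and was listed at 0 in all T. grandis libraries in 754. In 936 components the exchange was nearly complete, with each leader at 90% or more in its own species and under 10% in the other. Exchange here means only that another feature led. Without sequences, separate copies of a gene and 1 gene whose sequence differs between the species cannot be told apart.

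**Figure D4:**
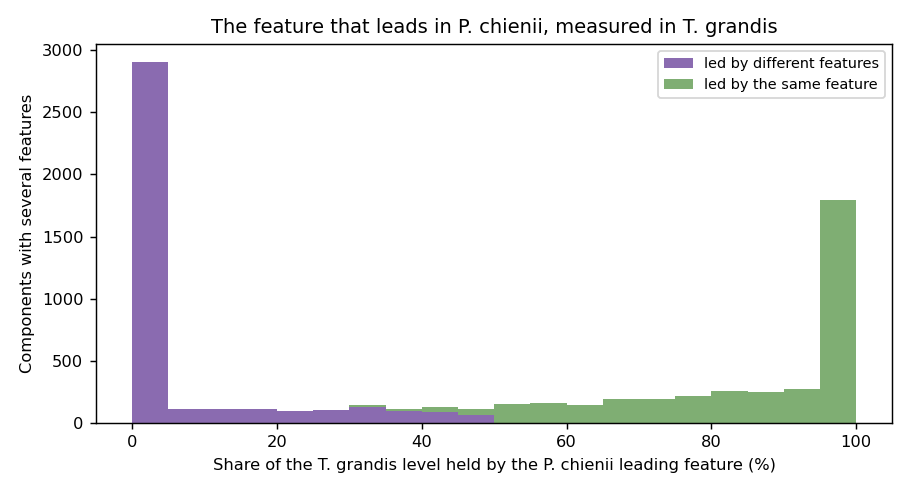
Number of components with several features by the share of the T. grandis level that the P. chienii leading feature holds, in bins of 5 percentage points. Components led by different features are stacked below those led by the same feature; the tallest bins are at the ends, near 0% for the former and near 100% for the latter.

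How often a component changed as a whole was counted by its leaders. Of the 3790 components led by different features 1601 changed (42.2%), against 1278 of the 3765 with several features and the same leader (33.9%) and 780 of the 2670 with 1 feature (29.2%), beside 35.8% of all. At least 8-fold differences stood in 5.28%, 2.23% and 1.05% of these sets. The median difference was 1.79-fold, 1.62-fold and 1.54-fold. The interval of the fold change lay within 2-fold in 30.6%, 41.4% and 47.3% of them, against 39.0% of all. These differences between the sets were not tested. The test of single features gave another count. Of 25635 features that reached 5 TPM in 3 or more of the 6 libraries 74.0% were called, 40.3% higher and 33.7% lower in P. chienii. Such a feature can pass the filter through the species where it is high. In the 2189 components led by different features that did not change as a whole, the P. chienii leader was called higher in P. chienii in 1689, or 77.2%, and the T. grandis leader was called lower there in 1664, or 76.0%. A leader is by its choice high in its own species, so these shares describe the exchange and do not test it. Of the 767 components led by different features that were lower in P. chienii as a whole, the P. chienii leader was called higher there in 464. Of the 834 that were higher as a whole, the T. grandis leader was called lower there in 500. The choice of leaders favours these cases too.

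TRINITY_DN36656_c0 and TRINITY_DN43094_c0 show the exchange in components that did not pass the call, although their libraries did not overlap between the species. In TRINITY_DN36656_c0 the feature TRINITY_DN36656_c0_g1 was at 20808, 23827 and 27180 TPM in P. chienii and at 75.6, 55.0 and 25.6 TPM in T. grandis. The feature TRINITY_DN36656_c0_g7 was at 6.57, 73.4 and 37.5 TPM in P. chienii and at 12227, 17131 and 10699 TPM in T. grandis. Each held over 99% of the mean level of its species (99.5% and 99.1%). In TRINITY_DN43094_c0 the feature TRINITY_DN43094_c0_g3 was at 4198, 3915 and 3981 TPM in P. chienii and at 11.3, 7.31 and 4.87 TPM in T. grandis. Its counterpart TRINITY_DN43094_c0_g2 was at 6.57, 41.0 and 22.0 TPM in P. chienii and at 2813, 3150 and 2818 TPM in T. grandis. As a whole TRINITY_DN43094_c0 was at 4085 ± 126 TPM and 2951 ± 191 TPM (SD, n = 3), giving a log2 difference of 0.47 ± 0.18 (SE) that missed the threshold (adjusted p = 0.0528, limma).

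In other components the exchange came with a change of the total. In TRINITY_DN47601_c0 the T. grandis leader TRINITY_DN47601_c0_g2 was at 41230, 35234 and 22442 TPM in T. grandis and at 25.1, 226 and 107 TPM in P. chienii. The P. chienii leader TRINITY_DN47601_c0_g3 was at 155, 1005 and 2032 TPM in P. chienii and at 5.66, 3.38 and 0.08 TPM in T. grandis, so it rose within a component that fell. TRINITY_DN52904_c1 was alike, with its P. chienii leader at 4.85 ± 0.665 TPM there and listed at 0 in all 3 T. grandis libraries, while its T. grandis leader was at 409 ± 75.6 TPM in T. grandis (SD, n = 3). In TRINITY_DN41305_c0, TRINITY_DN41305_c0_g4 held 99.7% of the P. chienii level and 37.0% of the T. grandis level. The T. grandis leader of that component, TRINITY_DN41305_c0_g2, was at 37.6, 24.3 and 0 TPM in T. grandis and at 0, 48.2 and 24.2 TPM in P. chienii, so the species overlapped there and the lead rested on low values.

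**Figure D5:**
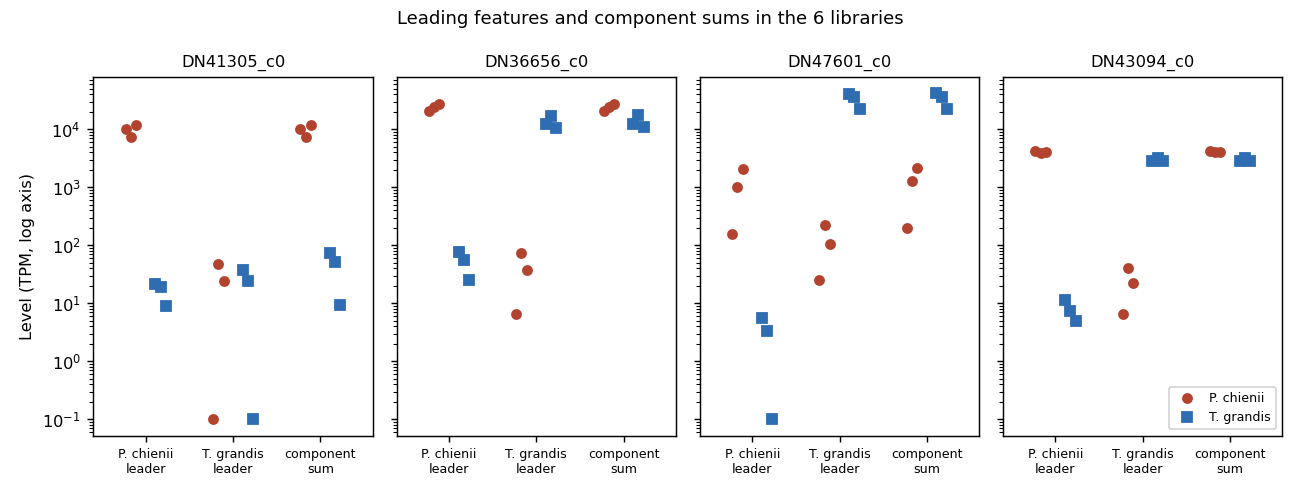
Levels of the P. chienii leading feature, the T. grandis leading feature and the component sum in the 3 P. chienii (circles) and 3 T. grandis libraries (squares), for the 4 most abundant components led by different features, in TPM on a log axis, with values under 0.1 drawn at 0.1. In TRINITY_DN36656_c0 and TRINITY_DN43094_c0 the leaders cross over while the sums differ far less than the leaders, and in the other panels the sums lie far apart.

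The components called higher in P. chienii held 31.6% ± 0.643 of the TPM there and 7.16% ± 0.0485 in T. grandis (SD, n = 3). The components called lower held 6.14% ± 0.273 in P. chienii and 31.1% ± 0.452 in T. grandis. These sets were chosen by their difference, and with a fixed total what 1 set gains the rest must lose, so the values are a description. The compared components that did not change held 39.5% ± 0.638 and 38.9% ± 1.28.

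The libraries of A. argotaenia did not enter the test. At 1313 of the 1946 components higher in P. chienii (67.5%), its mean log2 level was nearer to T. grandis than to P. chienii. At the 1713 lower components it was nearer to T. grandis at 763 (44.5%) and nearer to P. chienii at 950. In both directions A. argotaenia was thus nearer to the lower species at most components, and no test was made of this. The components were chosen for a difference between P. chienii and T. grandis and had to reach 5 TPM in all libraries of both. No limit was set for A. argotaenia, and 8888 of the 10225 tested components reached 5 TPM in all 3 of its libraries. This choice by itself can favour a level nearer to the lower species, so the shares are a description.

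The spread between libraries of a species was similar on both sides, with a median SD on the log2 scale of 0.19 in P. chienii and 0.18 in T. grandis. An SD above 1 was found at 100 components in P. chienii, 67 in T. grandis and 7 in both. The components named in this paragraph were singled out after their values were seen. The largest difference that missed the threshold was at TRINITY_DN41080_c0, which was at 8.70, 7.83 and 6.14 TPM in P. chienii and at 3409, 21.4 and 24.6 TPM in T. grandis. T. grandis replicate 1 lay far above the other libraries of its species, yet all T. grandis libraries lay above all those of P. chienii. The log2 difference was -3.88 ± 1.74 (SE), with 0.0859 as limma's adjusted p. TRINITY_DN45849_c1 was at 485, 36.1 and 24.7 TPM in P. chienii against 12.7, 12.4 and 14.3 TPM in T. grandis. Its P. chienii replicate 1 likewise lay far above the others, and the species did not overlap. TRINITY_DN38187_c0 was at 761, 12.9 and 7.93 TPM in T. grandis and at 23.0, 23.0 and 16.3 TPM in P. chienii.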

How the data were processed

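Trizol was used to extract RNA and library preparation followed Illumina's standard protocols, per the labels. The values deposited by the authors are TPM per gene-level Trinity feature, with 1 table for each library. The unit is inferred, since the 6 libraries sum to between 999890 and 999947. Quantifier, versions and filters: not given in the sources used here. Depth is unknown, so no counting interval is given.

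TPM was summed over each component, and components with at least 5 TPM in all 6 libraries were tested on log2(sum + 1) by limma 3.58.1 (R 4.3.3), with species as the only term, a trend of the variance on intensity, two-sided tests and Benjamini-Hochberg adjustment over all 10225 components. Fold changes are on that scale and understate the change of low components. Changed components had a 2-fold or larger difference and an adjusted p under 0.05. Named are the 6 largest rises and falls among changed components with at least 20 TPM in the higher species, the extremes of each abundance class, the 6 most abundant components, the 4 most abundant led by different features and the 4 of at least 500 TPM that differed least. The comparison and its rules were chosen with earlier results of these data known. On simulated data with 10225 components, 200 of them changed, the recovery was 32.8% for true 2-fold changes, which lie on the limit of the call. It was 94.0% for 4-fold and 98.5% for 8-fold changes, and 9 calls were false. The simulation drew independent normal noise around the mean of each component. In the data far more components, 6459, passed the adjusted p with no minimum fold, so these rates may not hold there. Summaries used Python 3.11.15 (scipy 1.17.1, numpy 2.4.6, pandas 2.3.3), and matplotlib 3.10.9 drew the figures. Alternatives covered the pseudocount, filter, scaling, trend, minimum fold, libraries, replicate block, single features and class definition.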

Additional observations from a re-analysis of the deposited data

How the results depend on the processing

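The counts followed the filter and the minimum fold. Against 3659 changed components (1946 higher and 1713 lower in P. chienii), 6260 (3470 and 2790) changed of those with at least 1 TPM in all 6 libraries, 1243 (628 and 615) with at least 20 TPM, 18722 (10362 and 8360) with 1 TPM or more in 3 or more libraries and 19564 (10691 and 8873) with no filter. The latter settings admit components found in 1 species alone. With no minimum fold 6459 (3321 and 3138) changed, and at least 4-fold 1037 (540 and 497). Only components with the same leading feature gave 2061 (1113 and 948) of 6435. Single features at 5 TPM in all 6 libraries gave 2386 (1271 and 1115) of 7415, and those at 5 TPM in 3 or more libraries, an alternative chosen after seeing the data, 18972 (10335 and 8637) of 25635. Classed by the lower species mean, 38.0% changed under 20 TPM, 30.4% at 100 to 500 TPM and 30.3% at 500 TPM and over; classed by A. argotaenia, 30.9% changed under 20 TPM. In the other cases the counts stayed within 1.5 times. Leaving out 1 library gave 3625 to 3703 changed, 1874 to 2064 higher and 1639 to 1766 lower. Leaving out both libraries that stood apart gave 3773, of which 3381 were among the 3659. The replicate block gave 3652 changed (1943 and 1709). The deviations of same-numbered libraries from their species correlated at r = -0.07, -0.09 and -0.11. Whether the numbers pair the libraries is not labelled, and these values cannot settle it. No direction of a called named component turned under any alternative that tested it. Depth is unknown, so low values may be less certain than their spread shows.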

Other observations

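The libraries that stood apart shared a feature of their own, noticed after the values were seen. TRINITY_DN25635_c0, a component of 1 feature, was at 79.7, 3101 and 2654 TPM in replicates 1 to 3 of P. chienii, at 2537, 2392 and 145 TPM in T. grandis and at 2185, 69.6 and 3106 TPM in A. argotaenia. The low libraries were thus P. chienii replicate 1, T. grandis replicate 3 and A. argotaenia replicate 2, the library of each species that correlated least with the other libraries. The species were not told apart by the test, the log2 difference being -0.14 ± 1.60 (SE) and limma's adjusted p 0.946. TRINITY_DN32792_c0 had the same pattern at lower levels, with P. chienii at 11.7, 81.5 and 52.8 TPM, T. grandis at 89.2, 119.9 and 21.2 TPM, and A. argotaenia at 37.6, 7.86 and 36.1 TPM. These were the 2 compared components at which the library apart was at least 4-fold below both others in all 3 species. In P. chienii alone 15 components were that far below in replicate 1, and in T. grandis 6 in replicate 3. The labels give no batch or date for any library and no tissue part beyond wood with needles, and what separates these libraries was not tested.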
